A study of Mus musculus with 17 samples.

Results

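The transcripts of 9 genes of the Nodal and Activin pathway were followed across mouse embryonic stem (ES) cell lines in which a forkhead transcription factor had been switched on. The genes were taken as a list, by role: the ligand genes Nodal, Gdf3, Inhba and Inhbb, the co-receptor Tdgf1 (Cripto), the secreted inhibitors Lefty1, Lefty2 and Fst (follistatin), and the intracellular inhibitor Smad7. Transcripts were summed per gene symbol, and the 9 are among 53588 symbols in the deposited tables. All but Inhba passed the filter on low counts, which left 8 of them among 19796 genes tested.

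RNA-seq was made from polyadenylated RNA of 5 lines called iFoxA1, iFoxC1, iFoxG1, iFoxL2 and iFoxP3. All derive from MC1 ES cells (129S6/SvEvTac), and each holds, at the Rosa26 locus, a puromycin resistance gene and its factor's reading frame, tagged with His6-FLAG at the C terminus and repressed by doxycycline (Dox). The 24 h cells (11 libraries, 3 of iFoxA1 and 2 of each other line) had Dox washed out and were then grown in a differentiation medium with 10% serum, for which the labels list no leukemia inhibitory factor (LIF). The 0 h cells (6 libraries, 2 of iFoxA1 and 1 of each other line) were kept in ES medium with 15% serum, 1000 U/ml LIF and 0.2 µg/ml Dox. Every line carries a transgene at both times, and no line without one is among the samples, so the factor and the change of medium cannot be told apart in a change over time. Whether replicates came from separate cultures is not in the labels, so p-values reflect how far the libraries at hand differ.

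Nodal and the activins (dimers of the subunits encoded by Inhba and Inhbb) are ligands of the TGF-β superfamily. They bind activin receptors, Nodal and Gdf3 with the help of a co-receptor such as Tdgf1, and the receptors phosphorylate Smad2 and Smad3, which enter the nucleus with Smad4 and act at target genes together with partners such as the forkhead factor Foxh1. Lefty1, Lefty2 and Smad7 are known targets of this signal that inhibit it in turn, and in the early embryo Nodal signalling keeps the epiblast undifferentiated before it patterns mesoderm and endoderm.

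The totals were 17.7 to 22.2 M estimated counts in 12 libraries and 32.9 to 37.2 M in 5, which form a second, deeper set (iFoxA1 24 h replicate 3 and replicate 2 of each other line at 24 h). No 0 h library belongs to the second set. Replicates were compared by a chi-square against counting noise, per degree of freedom. It was 3 for the 2 iFoxA1 libraries at 0 h and 3.6 for iFoxA1 replicates 1 and 2 at 24 h. Every other replicate pair joins the 2 sets and had 91.2 to 238. The spread in the main model thus comes mostly from pairs that join the sets. The libraries held the markers of their labelled cell type. The 8 ES cell markers checked (Pou5f1, Sox2, Nanog and others) summed to 2336.7 to 5141.2 CPM (counts scaled to the library total) at 24 h and 4423.0 to 5547.9 CPM at 0 h. The 8 fibroblast markers summed to at most 19.1 CPM at 24 h and 12.7 CPM at 0 h. The 8 trophoblast markers summed to 36.8 to 136.4 CPM at 24 h and 56.6 to 116.7 CPM at 0 h. The 8 markers of primitive and visceral endoderm, given below by line, reached 206.4 CPM at 24 h and 119.0 CPM at 0 h. Each line's own factor was at 11.5 to 288.8 CPM at 24 h and at most 3.05 CPM at 0 h. Of the 24 h libraries, 2 stood apart from the others. iFoxA1 replicate 3 had 76.8 CPM of Foxa1, against 236.5 and 252.2 CPM in the other replicates, and iFoxL2 replicate 2 had 11.5 CPM of Foxl2, against 149.3 CPM in replicate 1. Their ES marker sums, 5141.2 and 5043.3 CPM, lay among those of the 0 h libraries. Results that rest on these libraries are given with and without them.

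The sequences shown here are those of the gene that changed most, of the co-receptor with the highest level, and of the Lefty pair whose reads can be exchanged. RefSeq (GRCm38.p6) promoter sequences, from 250 bases before to 50 bases after the start, were at hand for 4 of the 9 genes (Inhbb, Tdgf1, Nodal and Inhba). They were searched on both strands for the short Smad element GTCTG, which 49.6% of 32851 promoters of the same length hold, for the forkhead motif TGTTTAC, held by 3.65%, and for the Foxh1-type motif TGTNNATT, held by 12.2%. The motifs do not overlap in the Tdgf1 promoter (chr9:110946109-110946408, minus strand), which held 1 match to the Smad element and 2 to the Foxh1-type motif, in capitals below and read from the opposite strand, and none to the forkhead motif. The Inhbb promoter (chr1:119422199-119422498, minus strand) held none of the 3 motifs, and neither did those of Nodal and Inhba.
Tdgf1 promoter: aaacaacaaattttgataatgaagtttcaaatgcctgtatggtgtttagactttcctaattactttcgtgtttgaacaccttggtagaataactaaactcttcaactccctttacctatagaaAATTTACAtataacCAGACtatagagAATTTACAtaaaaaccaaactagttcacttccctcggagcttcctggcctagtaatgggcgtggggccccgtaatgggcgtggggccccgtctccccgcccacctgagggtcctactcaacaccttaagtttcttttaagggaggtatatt
Inhbb promoter: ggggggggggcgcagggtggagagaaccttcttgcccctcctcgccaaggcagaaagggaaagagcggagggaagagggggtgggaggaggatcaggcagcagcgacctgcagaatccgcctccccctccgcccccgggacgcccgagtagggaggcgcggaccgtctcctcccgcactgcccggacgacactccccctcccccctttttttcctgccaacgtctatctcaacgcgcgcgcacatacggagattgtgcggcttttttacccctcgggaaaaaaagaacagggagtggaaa

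Lefty1 (ENSMUSG00000038793.8, chr1:180935022-180938400, plus strand) and Lefty2 (ENSMUSG00000066652.5, chr1:180893108-180899103, plus strand) lie next to each other in the mm10 build and encode closely related proteins. Their coding sequences in the GENCODE M21 annotation are 1104 bases each and share 1014 of them (91.8%), with a longest identical run of 140 bases. Of all 31-base words in the transcripts of each gene, Lefty1 shares 25.7% with Lefty2 and Lefty2 shares 17.2% with Lefty1, so part of the reads could be assigned to either gene. The stretch from coding base 35 to base 124 holds 27 of the 90 differences, shown in capitals, and is one in which reads of the 2 genes can be told apart.
Lefty1 coding: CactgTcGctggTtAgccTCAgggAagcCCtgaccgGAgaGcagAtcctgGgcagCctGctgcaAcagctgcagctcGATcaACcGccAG
Lefty2 coding: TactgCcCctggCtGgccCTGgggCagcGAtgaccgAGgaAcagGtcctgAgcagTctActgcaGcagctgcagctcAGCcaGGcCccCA

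Levels were compared between genes in TPM, abundances that allow for transcript length. At 24 h the median TPM was 258.1 for Tdgf1, 48.9 for Gdf3, 26 for Nodal, 22.3 for Lefty2, 16.4 for Smad7, 9.31 for Lefty1, 1.07 for Fst, 0.611 for Inhbb and 0.017 for Inhba. At 0 h the order was Tdgf1 with 435.4 TPM, Lefty2 with 74.9, Gdf3 with 52.3, Lefty1 with 39.4, Nodal with 26.8, Inhbb with 12.3, Smad7 with 10.4, Fst with 0.505 and Inhba with 0.0145. Tdgf1 was thus the most abundant of the 9 at both times, with no overlap with the next gene over libraries. At 0 h the ranges of Lefty2 (65.8 to 94.7 TPM) and Gdf3 (44.1 to 74 TPM) overlapped, as did those of Inhbb (7.24 to 25.9 TPM) and Smad7 (8.25 to 18.1 TPM). Inhbb stood in the sixth place at 0 h and in the eighth at 24 h, and the Lefty genes also moved down the order.

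**Figure D1:**
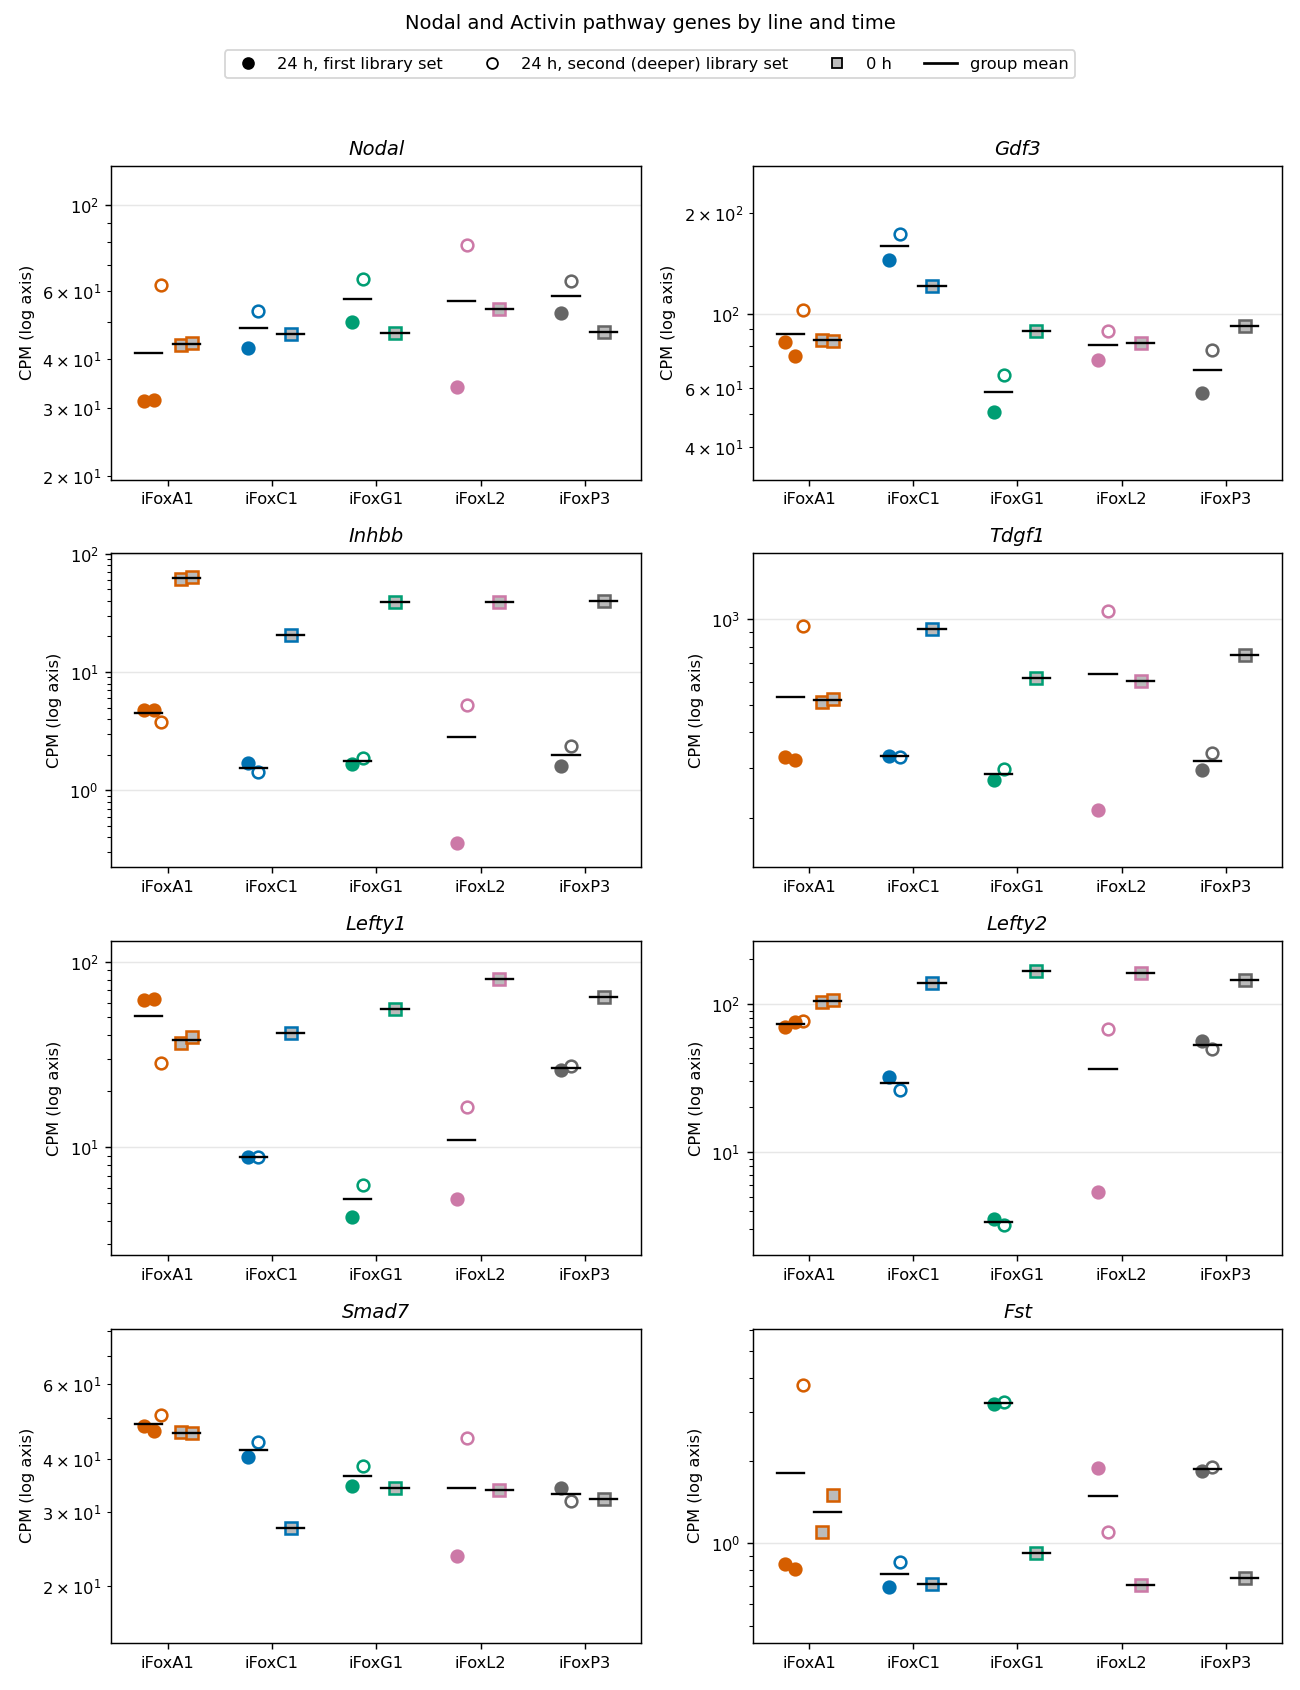
CPM of 8 of the 9 genes in each library, on log axes, for the 5 lines. Circles left of each position are 24 h libraries (filled, first library set; open, second set), grey squares right of it are 0 h libraries, and lines are group means; the 24 h values of Inhbb (0.356 to 5.3 CPM) lie below all 0 h values (20.4 to 63.2 CPM).

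The average change over the lines, 24 h minus 0 h with equal weight for each line, was tested across all 19796 genes with edgeR's quasi-likelihood test and Benjamini-Hochberg adjustment at 0.05. Of the 8 genes, 3 passed, all lower at 24 h (Inhbb, Lefty1 and Lefty2), while 37.8% of all genes passed in either direction and 16.1% passed as lower. The median log2 change of the 8 was -0.44, against 0.04 over all genes tested. The background is high, so the count of 3 does not set these genes apart, and the values of each gene follow by role.

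Inhbb (ENSMUSG00000037035.5, chr1:119415465-119422248, minus strand) encodes the βB subunit of activin B and inhibin B and fell in every line. In iFoxA1 it had 4.81, 4.78 and 3.81 CPM at 24 h and 60.7 and 63.2 CPM at 0 h. iFoxC1 had 1.69 and 1.42 CPM at 24 h and 20.4 CPM at 0 h, and iFoxG1 had 1.66 and 1.89 CPM at 24 h and 39.5 CPM at 0 h. No 24 h library of any line reached the lowest 0 h library. iFoxL2 had 0.356 and 5.3 CPM at 24 h and 39.5 CPM at 0 h. In iFoxP3 the 24 h libraries had 1.6 and 2.38 CPM, against 40.2 CPM at 0 h. The average log2 change was -4.01 ± 0.38 (SE; edgeR adjusted p = 6.97e-05), a 16.2-fold lower level. Without iFoxL2 24 h replicate 2 it was -4.62 (adjusted p = 3.13e-07), and without both libraries that stood apart -4.60 (adjusted p = 2.33e-07). Within lines Inhbb passed in all 5, with log2 changes of -3.80 ± 0.69 for iFoxA1 (edgeR adjusted p = 0.00779; 10.8% of all genes passed), -3.72 ± 0.89 for iFoxC1 (adjusted p = 0.0315; 9.73% of all genes) and -4.47 ± 0.90 for iFoxG1 (adjusted p = 0.0236; 5.64%). For iFoxL2 the change was -3.77 ± 0.88 (adjusted p = 0.0453; 4.23% of all genes passed) and for iFoxP3 it was -4.32 ± 0.90 (adjusted p = 0.0255; 6.05%). The lone 0 h libraries of 4 lines cannot be left out of the average change, nor of the change within their own line. With each of the other 13 libraries dropped in turn, the average call held in 13 of 13 fits, and the calls within lines held in 15 of 17 fits for iFoxA1 and in 6 (iFoxL2) to 12 (iFoxG1 and iFoxP3) of 16 for the others. In iFoxL2 the value itself rested on the replicate, with a log2 change of -6.77 without replicate 2 and -2.90 without replicate 1. Bulk RNA cannot tell fewer cells that express a gene from less RNA per cell, here or for the other genes.

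Inhba (ENSMUSG00000041324.14, chr13:16011851-16031621, plus strand), which encodes the βA subunit of activin A, was near the limit of detection. It held 25 estimated counts in all over the 11 libraries at 24 h and 11 counts over the 6 at 0 h, with at most 5 (rounded) in a library, and was at 0 in 3 libraries, where a count of 0 allows up to 0.0911 to 0.17 CPM (3 counts, counting error only). It was therefore not tested.

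Nodal (ENSMUSG00000037171.6, chr10:61417972-61425338, plus strand) did not pass the test. Its lowest, median and highest values were 31.3, 52.7 and 78.9 CPM at 24 h and 43.5, 46.6 and 53.8 CPM at 0 h, and the 24 h range enclosed the 0 h range. On average the log2 change was 0.13 ± 0.22 (edgeR adjusted p = 0.681). Its direction depended on the second library set. There Nodal had 1.21 to 2.33 times the CPM of the first set of the same line at 24 h. In TPM the second set was lower in iFoxC1 (23.9 against 25.2), iFoxG1 (29.4 against 31.7) and iFoxP3 (27.3 against 33.1). It was higher in iFoxA1 (26 against 20.6 and 20.2 TPM) and iFoxL2 (31.7 against 21.6 TPM). With the set as a term the change was -0.21 (adjusted p = 0.248), in the first set alone -0.20 (adjusted p = 0.0004), without the 2 libraries that stood apart -0.11 (adjusted p = 0.336) and with replicate number as a block -0.12 (adjusted p = 0.605). Leaving out iFoxL2 24 h replicate 2 alone turned it to -0.02.

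Gdf3 (ENSMUSG00000030117.5, chr6:122605403-122610087, minus strand), a ligand that uses the same co-receptor as Nodal, had 51 CPM at the lowest, 78 at the median and 173.6 at the highest at 24 h, and 81.9, 86.4 and 121.2 CPM at 0 h. Over the lines the log2 change was -0.12 ± 0.11 (edgeR adjusted p = 0.411) and became -0.30 with the library set as a term (adjusted p = 0.00229) or in the first set alone (adjusted p = 5.29e-05). What stood out for Gdf3 was 1 line. iFoxC1 had 144.6 and 173.6 CPM at 24 h, while no other 24 h library had more than 103.0 CPM. Against the mean of the 4 other lines at 24 h its log2 difference was 1.13 ± 0.15 (edgeR adjusted p = 0.00377), and it was the only one of the 8 genes to pass there, where 3.69% of all genes passed. Without iFoxC1 24 h replicate 2 the difference was 0.96 (adjusted p = 0.125). iFoxC1 was also the highest line at 0 h, with 121.2 CPM, and the test for a difference among the lines at 0 h did not pass for Gdf3 (adjusted p = 0.822). The first set alone, in which it did (adjusted p = 0.000696), called 54.5% of all genes in that test. Without the 2 libraries that stood apart, 5 of the 8 genes passed for iFoxC1 at 24 h, as did 17.8% of all genes, with Gdf3 at 1.17 (adjusted p = 0.00124).

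Tdgf1 (ENSMUSG00000032494.12, chr9:110939603-110946158, minus strand) encodes the cell-surface co-receptor for Nodal and Gdf3 and is abundant in undifferentiated ES cells. The iFoxA1 libraries had 328.1, 319.1 and 948.4 CPM at 24 h and 513.3 and 523.6 CPM at 0 h, and the iFoxL2 libraries had 213.7 and 1068.8 CPM at 24 h and 606.3 CPM at 0 h. In the other lines the 24 h values were 326.4 and 331.0 CPM in iFoxC1 (925.8 at 0 h), 272.2 and 296.7 CPM in iFoxG1 (619.7 at 0 h) and 293.5 and 338.8 CPM in iFoxP3 (748.0 at 0 h). The highest 24 h values were thus those of the 2 libraries that stood apart, and the other 9 were all below the lowest 0 h library. The average log2 change was -0.75 ± 0.34 (edgeR adjusted p = 0.115), which does not pass. With a library dropped in turn it passed in 2 of 13 fits, those without a library that stood apart. It passed without the 2 libraries (-1.21, adjusted p = 1.43e-06), without iFoxA1 24 h replicate 3 alone (-0.89, adjusted p = 0.0336), without iFoxL2 24 h replicate 2 alone (-1.07, adjusted p = 0.00852), with the library set as a term (-1.21, adjusted p = 0.00968), in the first set alone (-1.24, adjusted p = 1.16e-09), with the replicate block (-1.07, adjusted p = 0.0255) and with DESeq2 (-0.77, adjusted p = 0.0379). Tdgf1 shares 12.5% of its 31-base words with the pseudogene Tdgf1-ps1, which was given up to 106.7 CPM, so some reads could belong to either.

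Lefty1, a secreted antagonist of Nodal, lay below its 0 h level at 24 h in 4 of the 5 lines and overlapped between times in iFoxA1. The iFoxA1 libraries had 61.9, 63.1 and 28.4 CPM at 24 h and 36.2 and 39.1 CPM at 0 h. iFoxC1 had 8.83 and 8.88 CPM at 24 h and 41 CPM at 0 h, iFoxG1 had 4.18 and 6.27 CPM at 24 h and 55.3 CPM at 0 h, and iFoxL2 had 5.24 and 16.5 CPM at 24 h and 80.8 CPM at 0 h. In these 3 lines and in iFoxP3 (26 and 27.4 CPM at 24 h, 64.8 CPM at 0 h) every 24 h library lay below the line's 0 h library, whereas in iFoxA1 the times overlapped, with replicates 1 and 2 above both 0 h libraries and replicate 3 below them. The average log2 change was -1.87 ± 0.25 (edgeR adjusted p = 0.000428), 3.64-fold lower. Within lines it passed in iFoxC1 (-2.21 ± 0.58, adjusted p = 0.0435), iFoxG1 (-3.40 ± 0.59, adjusted p = 0.0124) and iFoxL2 (-2.88 ± 0.58, adjusted p = 0.0283). It did not pass in iFoxP3 (-1.28 ± 0.58, adjusted p = 0.234) or in iFoxA1 (0.44 ± 0.45, adjusted p = 0.625). In iFoxL2 the size rested on the replicate, with -3.94 without replicate 2 and -2.29 without replicate 1, fits that leave 1 iFoxL2 library at each time. The average call held in 13 of 13 fits with a library dropped, and the calls within lines in 6 (iFoxC1), 14 (iFoxG1) and 10 (iFoxL2) of 16.

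Lefty2, the neighbouring antagonist, was below its 0 h level in every 24 h library, by amounts that ranged widely. iFoxG1 had 3.52 and 3.22 CPM at 24 h and 165.7 CPM at 0 h, and iFoxC1 had 32 and 26.3 CPM at 24 h and 137.7 CPM at 0 h. iFoxP3 had 56.1 and 49.8 CPM at 24 h, against 145.3 CPM at 0 h. The iFoxA1 libraries, with 69.2, 74.8 and 76.4 CPM at 24 h and 103.5 and 105.6 CPM at 0 h, were the closest between times. In iFoxL2 the replicates parted, with 5.39 and 67.5 CPM at 24 h and 160.1 CPM at 0 h, and the higher one is a library that stood apart. Over all lines the log2 change was -2.39 ± 0.38 (edgeR adjusted p = 0.00118), 5.25-fold lower. Within lines it passed in iFoxG1 alone (-5.62 ± 0.98, adjusted p = 0.0122), with -2.24 ± 0.89 in iFoxC1 (adjusted p = 0.147), -2.13 ± 0.89 in iFoxL2 (adjusted p = 0.215), -1.46 ± 0.89 in iFoxP3 (adjusted p = 0.384) and -0.51 ± 0.68 in iFoxA1 (adjusted p = 0.722). With a library dropped, the average call held in 13 of 13 fits and the iFoxG1 call in 14 of 16, the exceptions being its own 24 h libraries (adjusted p = 0.0808 without replicate 1 and 0.112 without replicate 2).

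**Figure D2:**
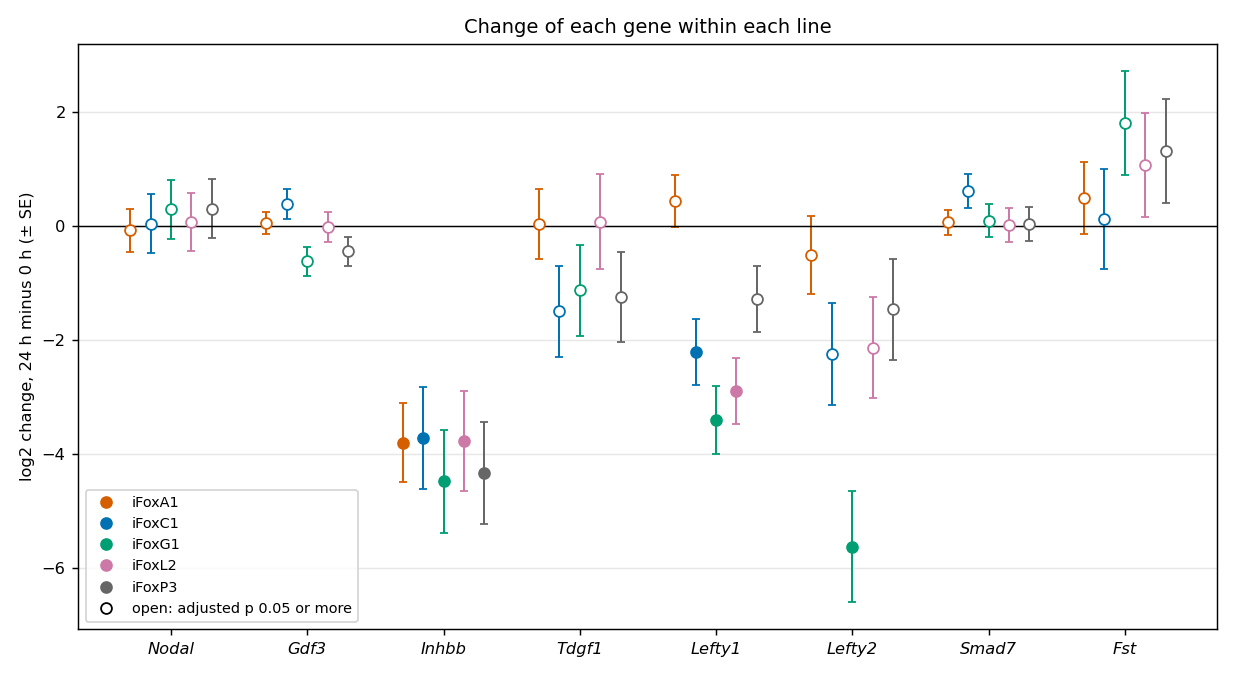
Change of each of the 8 genes tested within each line, as log2 (24 h minus 0 h) with its standard error; filled points passed the edgeR test within the line. Inhbb is filled in all 5 lines, Lefty1 in 3 and Lefty2 in iFoxG1.

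Whether the changes themselves differed among the lines was tested with an F test over the 5 changes. None of the 8 genes passed in edgeR, where 1% of all genes passed, although Lefty1 (adjusted p = 0.118) and Lefty2 (adjusted p = 0.24) were under an unadjusted p of 0.05, and those 2 passed in DESeq2 (adjusted p = 4.25e-05 and 0.00155), where 8.2% of all genes passed. Leaving out iFoxL2 24 h replicate 2, a library that stood apart, gave an adjusted p of 0.0176 for Lefty1, 0.000222 for Lefty2 and 0.0306 for Inhbb, with 4.46% of all genes past the threshold. Without iFoxL2 24 h replicate 1 it was 0.0263 for Lefty1 and 0.000498 for Lefty2 (5.34% of all genes passed), and without iFoxA1 24 h replicate 3 it was 0.045 for Lefty1 (3.13% of all genes). Without both libraries that stood apart, Lefty1 (adjusted p = 0.000443) and Lefty2 (adjusted p = 0.000186) passed, as did Inhbb, Tdgf1, Fst and Smad7 (adjusted p from 0.00766 to 0.0171), in a fit in which 22% of all genes passed. With the replicate block Lefty1 alone passed (adjusted p = 0.0333; 3.12% of all genes), without the filter on low counts Lefty1 alone (adjusted p = 0.0337; 0.501%), and with the library set as a term Gdf3 alone (adjusted p = 0.0241; 4.84%). At 0 h none of the 8 genes passed in a test for differences among the lines (0.495% of all genes passed), none had an unadjusted p under 0.05 and none passed in DESeq2, but 4 of the lines had 1 library there. Without the 2 libraries that stood apart, Inhbb, Tdgf1, Lefty1, Lefty2 and Smad7 passed at 0 h (adjusted p from 0.00971 to 0.0368), as did 20.5% of all genes. Both are 24 h libraries, so the 0 h libraries compared in that fit were the same.

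At 24 h, where each line has at least 2 libraries, Lefty1 and Lefty2 stood higher in iFoxA1 than over the 4 remaining lines together. The log2 difference was 2.24 ± 0.31 for Lefty1 (edgeR adjusted p = 0.00141) and 1.81 ± 0.48 for Lefty2 (adjusted p = 0.032), in a comparison in which 15.1% of all genes passed and these were the 2 of the 8 to do so. In CPM every iFoxA1 24 h library was above every 24 h library of the other lines, by a narrow margin. The lowest iFoxA1 and highest other values were 28.4 and 27.4 CPM for Lefty1 and 69.2 and 67.5 CPM for Lefty2. In TPM the lines overlapped for both genes. iFoxA1 replicate 3 had 14.6 TPM of Lefty1 and 30.4 TPM of Lefty2, against 24.5 and 39.1 TPM in iFoxP3 24 h replicate 1. With each library dropped in turn, Lefty1 kept its call in 17 of 17 fits and Lefty2 in 6 of 17, with an adjusted p of up to 0.0979. With the replicate block the Lefty2 difference was 1.82 (adjusted p = 0.0554). It was 2.53 (adjusted p = 2.26e-06) without iFoxL2 24 h replicate 2 and 2.50 (adjusted p = 2.4e-06) without both libraries that stood apart. In that last fit Lefty1 was at 2.82 (adjusted p = 5.92e-06), and 7 of the 8 genes and 33% of all genes passed. The summed markers of primitive and visceral endoderm were also higher in iFoxA1. The 8 markers (Gata4, Gata6, Sox7, Sox17, Dab2, Ttr, Afp and Cubn) summed to 206.4, 199.1 and 84.6 CPM in iFoxA1 at 24 h and to 7.8 to 32.8 CPM in the other lines at 24 h. At 0 h they summed to 115.6 and 119.0 CPM in iFoxA1 and to 2.89 to 4.73 CPM in the other lines. The markers were uneven. Over all libraries Cubn reached 106.1 CPM, Dab2 55.2, Gata6 25.1 and Gata4 13.1 CPM. Sox7 reached 6.92 CPM, Sox17 6.32, Ttr 1.02 and Afp 0.397 CPM, and Ttr was at 0 in the median library. The sum thus need not hold for each marker. The part of these markers in the Lefty difference was not tested.

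iFoxG1 was at the other end. Its Lefty2 level at 24 h was lower than the mean of the 4 other lines by a log2 difference of -3.74 ± 0.79 (edgeR adjusted p = 0.0396), the 1 pass of the 8 genes in a comparison where 2.74% of all genes passed. With each library dropped in turn the call held in 7 of 17 fits, and the log2 difference was -3.05 (adjusted p = 1.74e-05) without iFoxL2 24 h replicate 2 and -3.81 (adjusted p = 0.351) and -3.68 (adjusted p = 0.384) without iFoxG1 24 h replicate 1 and 2. Lefty1 in iFoxG1 had a difference of -1.86 ± 0.45 (adjusted p = 0.0665), which does not pass. Without the 2 libraries that stood apart, 5 of the 8 genes and 15.5% of all genes passed for iFoxG1, with Lefty2 at -3.05 (adjusted p = 2.43e-05). In iFoxL2 none of the 8 genes passed against the other lines (1.64% of all genes did), none had an unadjusted p under 0.05, and none passed in DESeq2. These results rested on the replicate. Without replicate 2, a library that stood apart, the log2 difference was -2.61 for Inhbb, -2.19 for Lefty2 and -0.73 for Smad7. Without replicate 1 it was 1.25 for Inhbb, 1.44 for Lefty2 and 0.18 for Smad7. Without both libraries that stood apart it was -2.64 for Inhbb, -0.53 for Tdgf1, -1.66 for Lefty1, -2.18 for Lefty2 and -0.73 for Smad7. Each of these fits leaves 1 iFoxL2 library at 24 h and takes its spread from other groups, so only the differences are given. In iFoxP3 none passed in edgeR or DESeq2 either (0.561% of all genes did in edgeR), with 2 genes, Gdf3 and Lefty1, under an unadjusted p of 0.05. Without the 2 libraries that stood apart 3 of the 8 passed there, with 9.41% of all genes.

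**Figure D3:**
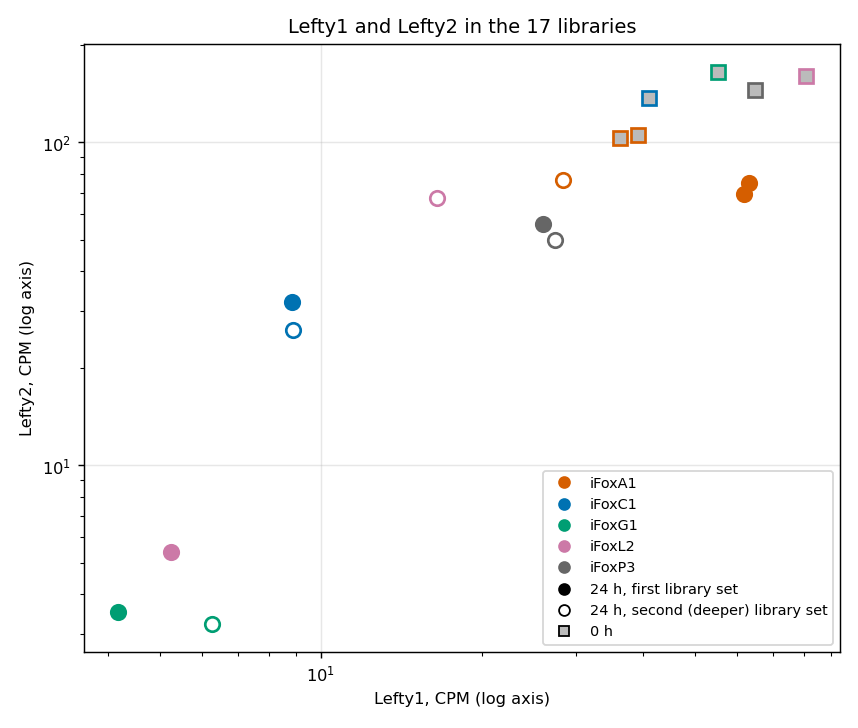
CPM of Lefty2 (vertical) against Lefty1 (horizontal) in the 17 libraries, on log axes, coloured by line; circles are 24 h libraries (open, second library set) and grey squares 0 h libraries. The 0 h libraries sit together at the top right, the 24 h libraries of iFoxG1 and iFoxL2 replicate 1 at the bottom left, and iFoxA1 replicates 1 and 2 have Lefty1 near or above the 0 h level with Lefty2 below it.

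The Lefty genes also changed places. Per length, Lefty1 was above Lefty2 in 5 of 11 libraries at 24 h and in 0 of 6 at 0 h. In iFoxA1 replicates 1 and 2 at 24 h, Lefty1 had 59.8 and 61.9 TPM and Lefty2 51.3 and 57.8 TPM, whereas at 0 h Lefty1 had 35.5 and 39.1 TPM and Lefty2 68.1 and 71.8 TPM. The other 3 libraries were those of iFoxG1 and iFoxL2 replicate 1, in which both genes were low. In iFoxG1 at 24 h, Lefty1 had 3.46 and 4.01 TPM and Lefty2 3.05 and 1.27 TPM.

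Fst (ENSMUSG00000021765.9, chr13:114452290-114458951, minus strand), which encodes follistatin, a secreted protein that binds and neutralises activins, was low throughout. The antisense gene Gm47040 overlaps it and had at most 1.0 counts in a library. Its highest 24 h value was 3.78 CPM in iFoxA1 replicate 3, a library that stood apart, against 0.843 and 0.806 CPM in the other iFoxA1 24 h libraries and 1.1 and 1.5 CPM at 0 h. iFoxG1 came next, with 3.22 and 3.28 CPM at 24 h and 0.925 CPM at 0 h. In iFoxG1, iFoxL2 and iFoxP3 every 24 h library was above the lone 0 h library, while in iFoxA1 and iFoxC1 the times overlapped. The average log2 change was 0.96 ± 0.38 (edgeR adjusted p = 0.0746), which does not pass. It did not pass in DESeq2 either, and with a library dropped in turn it passed in 3 of 13 fits. It passed without the 2 libraries that stood apart (0.80, adjusted p = 0.00193), in the first set alone (0.76, adjusted p = 0.00655), with the replicate block (0.74, adjusted p = 0.0236) and without any single iFoxA1 24 h library (1.03, adjusted p = 0.0491, without replicate 1, 1.03, adjusted p = 0.0463, without replicate 2, and 0.73, adjusted p = 0.0125, without replicate 3).

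Smad7 (ENSMUSG00000025880.11, chr18:75367529-75395935, plus strand), which blocks the receptors from inside the cell, had 23.5, 40.3 and 50.7 CPM at the lowest, median and highest at 24 h, and 27.4, 33.9 and 46.2 CPM at 0 h. The ranges overlapped, and iFoxA1 was the highest line at both times (46.4 to 50.7 CPM at 24 h, 46 and 46.2 CPM at 0 h). In TPM the median was 16.4 at 24 h and 10.4 at 0 h. By that measure every 24 h library was above 0 h within each line but iFoxL2 (9.75 and 17.8 against 10.5 TPM). The reading of Smad7 thus depended on the measure, and only counts were tested. Averaged over lines, its log2 change was 0.17 ± 0.13 (edgeR adjusted p = 0.327). Without iFoxL2 24 h replicate 1, which had the lowest value, it was 0.25 (adjusted p = 0.00785).

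Among the other genes of the pathway, more were higher at 24 h than lower. Of 50 further genes listed by role, 48 were tested, and 21 were higher and 2 lower at 24 h in the average change (edgeR, adjusted over all genes), against 21.7% of all genes higher and 16.1% lower. Their median log2 change was 0.35. Leaving out 1 library at a time gave 17 to 27 genes past the threshold, with 31.6% to 43% of all genes. Mstn and Acvr1c did not pass the filter on low counts.

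Among ligands, 2 of 8 were higher, Gdf11, a close relative of myostatin (log2 change 0.84 ± 0.18, adjusted p = 0.00523), and Tgfb2 (1.11 ± 0.39, adjusted p = 0.047). Tgfb2 was low, at 0.251 to 1.54 CPM at 24 h and 0.0948 to 0.541 CPM at 0 h, and the times overlapped. Of the receptors and co-receptors, 4 of 8 were higher, among them Tgfbr3 (betaglycan, 1.65 ± 0.23), the type II activin receptor Acvr2b (0.57 ± 0.09) and Eng (endoglin, 0.55 ± 0.11). Acvr2b had 22.3, 26.2 and 35 CPM at the lowest, median and highest at 24 h and 16.2, 18 and 21.6 CPM at 0 h, so that no 24 h library was below the highest 0 h library. Of the processing factors and extracellular inhibitors, 4 of 8 were higher, including Fstl1 (0.91 ± 0.06), the follistatin relative Fstl3 (0.96 ± 0.22) and Ltbp1, which binds latent TGF-β (0.76 ± 0.19).

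Inside the cell, 3 of 6 Smads and nuclear partners were higher. Foxh1, the forkhead partner of Smad2 and Smad3, had 39.4, 70.5 and 107.4 CPM at the lowest, median and highest at 24 h and 26.9, 35.5 and 38.4 CPM at 0 h, without overlap (log2 change 1.11 ± 0.17, adjusted p = 0.00088). Smad3 (0.90 ± 0.14) and the shared partner Smad4 (0.29 ± 0.09, adjusted p = 0.0364) were the others. Of 12 intracellular inhibitors and corepressors, 5 were higher, among them Skil (SnoN, a Smad corepressor; 1.65 ± 0.12, adjusted p = 1.5e-05), Tgif1 (a corepressor; 0.82 ± 0.21) and Nomo1 (a Nodal modulator; 0.37 ± 0.06). Skil had 114.8, 227.4 and 310.6 CPM at the lowest, median and highest at 24 h, above the 55.2, 64.8 and 112.3 CPM at 0 h.

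Of 6 further target genes, 3 were higher and 2 lower, so these did not move together. Ccn2 (connective tissue growth factor, 1.39 ± 0.11) and Lrrn1 (1.20 ± 0.36, adjusted p = 0.0274) were higher, and Spsb1, which encodes a SOCS-box protein, was lower (-1.58 ± 0.19, adjusted p = 0.000238). Lrrn1 was low, at 0.0496 to 1.31 CPM at 24 h and 0.162 to 0.308 CPM at 0 h, and the times overlapped. Of the 17 genes chosen by rule, 14 passed in every alternative fit run. Tgfb2, Smad4 and Lrrn1 did not, and their adjusted p reached 0.114, 0.0746 and 0.136.

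**Figure D4:**
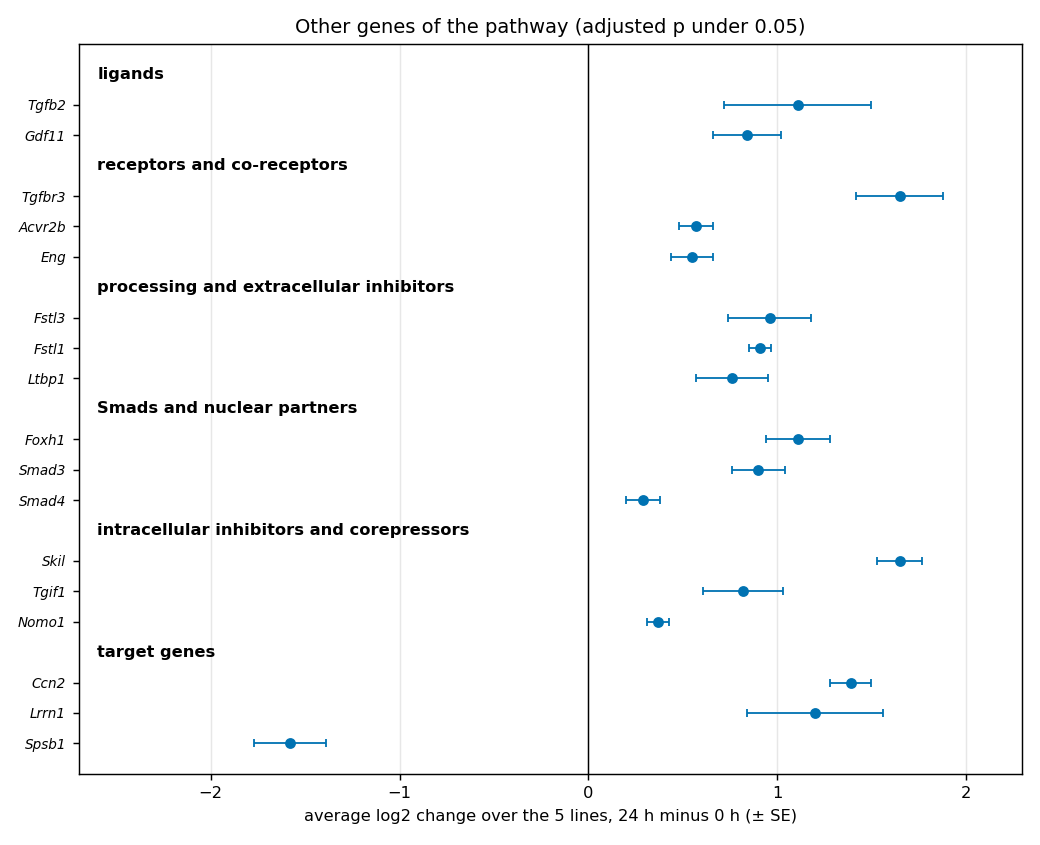
Average log2 change over the 5 lines (24 h minus 0 h, with its standard error) of the 17 other pathway genes named by rule, ordered by role; all of them passed the edgeR test across all genes. Spsb1 (-1.58) lies left of 0 and the others lie right of it, up to Tgfbr3 and Skil (1.65 each).

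The genes whose profile over the 17 libraries lay nearest were taken for the 7 of the 9 with a mean of at least 5 CPM (all but Fst and Inhba), by the root mean square (RMS) difference of mean-centred log2 CPM among 9920 candidates. Lefty2 had Lefty1 as its nearest gene, at an RMS difference of 0.81, against an RMS of 1.80 around its own mean, and Aurkc followed at 0.98. Lefty1 lay nearest to Itpka (0.73) and Gpx2 (0.81), with Lefty2 also at 0.81. Inhbb was nearest to Mras (0.76) and Mitf (0.77), against 2.18 around its own mean. Tdgf1 was nearest to Asah1 (0.21) and Kdm3a (0.22), Nodal to Dhodh (0.13) and Pik3r4 (0.15), Gdf3 to Fbxl14 (0.18) and Atp6v1e1 (0.19), and Smad7 to Zfp106 and Plekhm3 (0.17 each). Genes that vary little have small differences from many others, so these distances are not on one scale between genes.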

How the data were processed

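Polyadenylated RNA went into strand-specific libraries, 17 in all, per the labels' protocols. Salmon 1.4.0, DESeq2 1.30.1 and mm10 are named in the submitters' processing notes. The authors deposited estimated counts for each of 137271 transcripts, without normalisation, and TPM, which scale the same transcripts by their length and by library total. The annotation behind both was not given in the sources used here. By identifier, 137225 transcripts were matched to GENCODE M21, and the 46 others, at most 0.0133% of a library, were left out.

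Counts were summed per symbol, rounded, filtered with filterByExpr by group, scaled with TMM and tested by quasi-likelihood in edgeR 4.0.16 under R 4.3.3, in 1 model of 10 groups, with 7 residual degrees of freedom. The lone 0 h libraries of 4 lines were assumed to vary like the other groups. The same holds for a 24 h group that an alternative fit leaves with 1 library, whose p-values rest on the spread of other groups. Adjusted p-values are Benjamini-Hochberg over all 19796 genes tested, with a threshold of 0.05, and standard errors derive from the F statistic. CPM use TMM-scaled totals. Alternatives were DESeq2 1.42.0 (test and size factors), no filter, the library set as a term, the first set alone, leaving out the 2 libraries that stood apart, a replicate block and leaving out each library in turn. The fit was tested on simulated data.

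The 9 genes, the pathway lists, the tests and the alternatives were chosen with earlier results of these data known. All 9 genes are named, with up to 3 other pathway genes per role, those past the threshold with the smallest adjusted p in the average change; 1 further gene of the lists is counted but not reported here by name. Nearest genes are the 2 annotated protein-coding genes with the smallest RMS difference, taken where the mean CPM was 5 or more.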

Additional observations from a re-analysis of the deposited data

How the results depend on the processing

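Of the 8 genes tested, 3 passed in the average change in edgeR (37.8% of all genes passed); 5 passed with the library set as a term (40.8% of all genes), 7 in the first set alone (63.2%), 5 without the 2 libraries that stood apart (53.2%) and 5 with the replicate block (39.8%). Within lines, the first set alone and the fit without the 2 libraries gave 5 and 4 genes in iFoxA1, 6 and 5 in iFoxC1, 6 and 5 in iFoxG1, 7 and 6 in iFoxL2, and 6 and 5 in iFoxP3, where the set term gave 2. In these comparisons 41.2% to 47.3% of all genes passed in the first set alone, 20.5% to 32.9% without the 2 libraries and 9.59% to 18.8% with the set term. In the difference among the changes, where 1% of all genes passed in edgeR, 2 genes passed in DESeq2 (8.2% of all genes), 1 without the filter (0.501%), 1 with the set term (4.84%), 8 in the first set alone (50.9%), 6 without the 2 libraries (22%) and 1 with the block (3.12%). At 24 h against the other lines, the first set alone and the fit without the 2 libraries gave 7 and 7 in iFoxA1, 6 and 5 in iFoxC1, 5 and 5 in iFoxG1, 6 and 5 in iFoxL2 and 4 and 3 in iFoxP3, with 17% to 49.9% and 9.41% to 33% of all genes. For iFoxG1, DESeq2 gave 3 (5.2% of all genes), no filter 2 (1.12%), the set term 3 (5.82%) and the block 4 (5.09%). For iFoxP3 the set term gave 1 (1.79% of all genes). At 0 h the first set alone gave 7 (54.5% of all genes) and the fit without the 2 libraries 5 (20.5%). Of the other pathway genes, 37 passed in the first set alone, against the 63.2% of all genes above. The first set alone takes its spread from the 2 groups of iFoxA1 only, so its p-values assume that every line varies as little as these. The fit without the 2 libraries leaves iFoxL2 with 1 library at each time, so its counts for that line rest on the spread of other lines. The other causes were not tested.

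The average change of Nodal turned to -0.21 with the set term, -0.20 in the first set alone, -0.11 without the 2 libraries, -0.12 with the block, and leaving out 1 library gave -0.02 (without iFoxL2 24 h replicate 2) to 0.23 (without replicate 1).

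With 1 library left out, 3 to 5 genes passed in the average change (31.6% to 43% of all genes). Within lines 0 to 2 passed in iFoxA1 and iFoxP3, 0 to 3 in iFoxL2 and 0 to 4 in iFoxC1 and iFoxG1. Over these fits within lines, 1.38% to 16.5% of all genes passed. In the difference among the changes 0 to 3 passed (0.0709% to 5.34% of all genes). At 24 h the range was 1 to 4 in iFoxA1, 0 to 2 in iFoxC1, 0 to 3 in iFoxG1 and iFoxL2 and 0 to 1 in iFoxP3. The share of all genes in these 24 h fits ran from 0.00506% to 21.3%. At 0 h the range was 0 (0.0101% to 2.5% of all genes). Of the other pathway genes, 17 to 27 passed. The average calls of Inhbb, Lefty1 and Lefty2 held in the 13 such fits that can be made; the lone 0 h libraries of 4 lines cannot be left out. Within lines, Inhbb held in 15 of 17 for iFoxA1 and in 8, 12, 6 and 12 of 16 for iFoxC1, iFoxG1, iFoxL2 and iFoxP3; Lefty1 held in 6, 14 and 10 of 16 for iFoxC1, iFoxG1 and iFoxL2, and Lefty2 in 14 of 16 for iFoxG1. The lost calls kept their direction, and dropping either 24 h library of iFoxC1, iFoxG1 or iFoxP3 ended that line's calls.

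Replicate numbers are shared across lines, but over 22 pairs the correlation of same-numbered libraries ran from -0.566 to 0.757, with 16 above 0.1, so the numbers were not taken to pair the samples. The values correlated were deviations from each group's mean, and in a group of 2 libraries these are mirror images. Values across the sets therefore repeat those within a set with the sign turned, and the 22 pairs are not independent. At 24 h, pairs of different lines within a library set correlated at 0.491 to 0.757. The negative same-numbered pairs were iFoxA1 replicate 2, in the first set, with replicate 2 of other lines, in the second. The difference between the sets thus ran in a like direction in the lines. The main model has no term for the set, and fits with the set as a term are given above. The block moved the average count to 5 and ended the Lefty2 call in iFoxA1 at 24 h (1.82, adjusted p = 0.0554).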

Other observations

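The deposited tables also give transcripts, and the make-up of some of these genes differed between libraries. Lefty1 and Lefty2 each have a retained-intron transcript beside the coding one. The retained-intron form of Lefty2 (Lefty2-202) held 17.8% to 37.4% of the gene's TPM in the first-set 24 h libraries, 0% to 14.8% in the second-set 24 h libraries and 9.18% to 17.7% at 0 h. That of Lefty1 (Lefty1-202) held 0% to 49.9%, 0% to 18.8% and 11.4% to 22.6% in the same groups. The Lefty2 share was thus above every 0 h library in the first set at 24 h, at a time when the gene's level was lower, while the Lefty1 share overlapped.

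For Smad7 and Tdgf1 the shares followed the library set as well. Smad7-204 held 41.4% to 47.7% of Smad7 TPM in the second set at 24 h, 0% to 19.5% in the first set at 24 h and 0% at 0 h. Tdgf1-204, a second coding transcript of the co-receptor, held 0.696% to 2.25% in the second set at 24 h, 8.98% to 16.8% in the first set at 24 h and 6.63% to 12.8% at 0 h. The part of library depth or preparation in these shares, and in those of the Lefty genes, was not tested. All are estimates that divide reads shared by overlapping transcripts.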
